A study of Mus musculus with 9 samples.

Results

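The genes described are the nuclear-encoded subunits of the mitochondrial respiratory chain and ATP synthase, with the assembly factors that share their names. They were taken by symbol, as every row of the table whose name starts with Nduf, Sdh, Uqcr or Atp5, or with Cox4 to Cox8. The rule found 76 of the 9277 genes measured. Of these, 34 encode subunits of complex I, 4 of complex II, 8 of complex III, 10 of complex IV and 11 of complex V, and 9 are assembly factors. RNA was sequenced from endothelial cells of mouse lung in a comparison of 2 genotypes. Tie1 is an orphan receptor tyrosine kinase of endothelium, and the series concerns its cleavage and the response of vessels to inflammation. The Tie1-CR mice (5 libraries) carry a Tie1 that resists cleavage, and the Tie1-WT mice (4 libraries) carry wild-type Tie1. PBS stands in the name of each library in both groups, and only such libraries are analysed here. Age, sex, litter, batch, the allele's design and the way the cells were isolated are not given in the labels. Whether the libraries come from separate mice is not stated, so the p-values measure only their spread, which may be technical.

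The respiratory chain passes electrons from NADH through complex I, and from succinate through complex II, to ubiquinone. Complex III hands them on to cytochrome c and complex IV to oxygen, and complex V uses the proton gradient built on the way to make ATP. A few core subunits are encoded in mitochondrial DNA, while the genes described here lie in the nucleus and their products are imported. Endothelial cells are known to take much of their ATP from glycolysis, and their respiratory chain is known to serve biosynthesis and redox balance during growth.

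No respiratory chain gene passed the test between the genotypes, and the differences were small. Levels are in CPM, the count of a gene scaled to a common library total, and differences are Tie1-CR minus Tie1-WT on the scale of log2(CPM + 1), which understates changes of low genes. With limma, Benjamini-Hochberg adjustment over all 9277 genes and a threshold of 0.05, 0 of 76 members rose and 0 fell, and the smallest adjusted p was 0.0658, for Uqcrh. Of all genes, 4.05% passed, 1.28% higher and 2.77% lower. At an unadjusted p below 0.05, 7 of 76 members were lower and 0 were higher, against 22.3% of all genes, 14.0% lower and 8.27% higher. The groups did not overlap for 3 members, all lower in Tie1-CR (Uqcrh, Ndufaf7 and Ndufs1), against 10.5% of all genes, 6.74% lower and 3.74% higher. The share of members past any of these marks was thus no larger than that of all genes.

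Most members nevertheless lay slightly below 0. The difference was negative for 67 of 76 members (88.2%), against 58.5% of all genes, and its median was -0.08, against -0.03 over all genes. That median corresponds to a 1.06-fold lower level in Tie1-CR. Single differences ran from -0.22 for Ndufa5, an accessory subunit of complex I, to 0.13 for Atp5sl, a complex I assembly factor. The 95% intervals of the 76 members together spanned -0.49 to 0.30. With TMM scaling, which moved the median of all genes to 0.00, the members' median was -0.06 and 62 were negative. Without Tie1-CR replicate 3, and also with quantile normalization, it was -0.05 with 61 negative. It moved the other way without Tie1-CR replicate 1, to -0.115 with 72 negative. In that fit 23 members had an unadjusted p below 0.05 (limma), against 7 as reported. The share of all genes in that fit is not given here. In bulk samples, fewer cells of a type and less RNA per cell cannot be told apart.

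**Figure D1:**
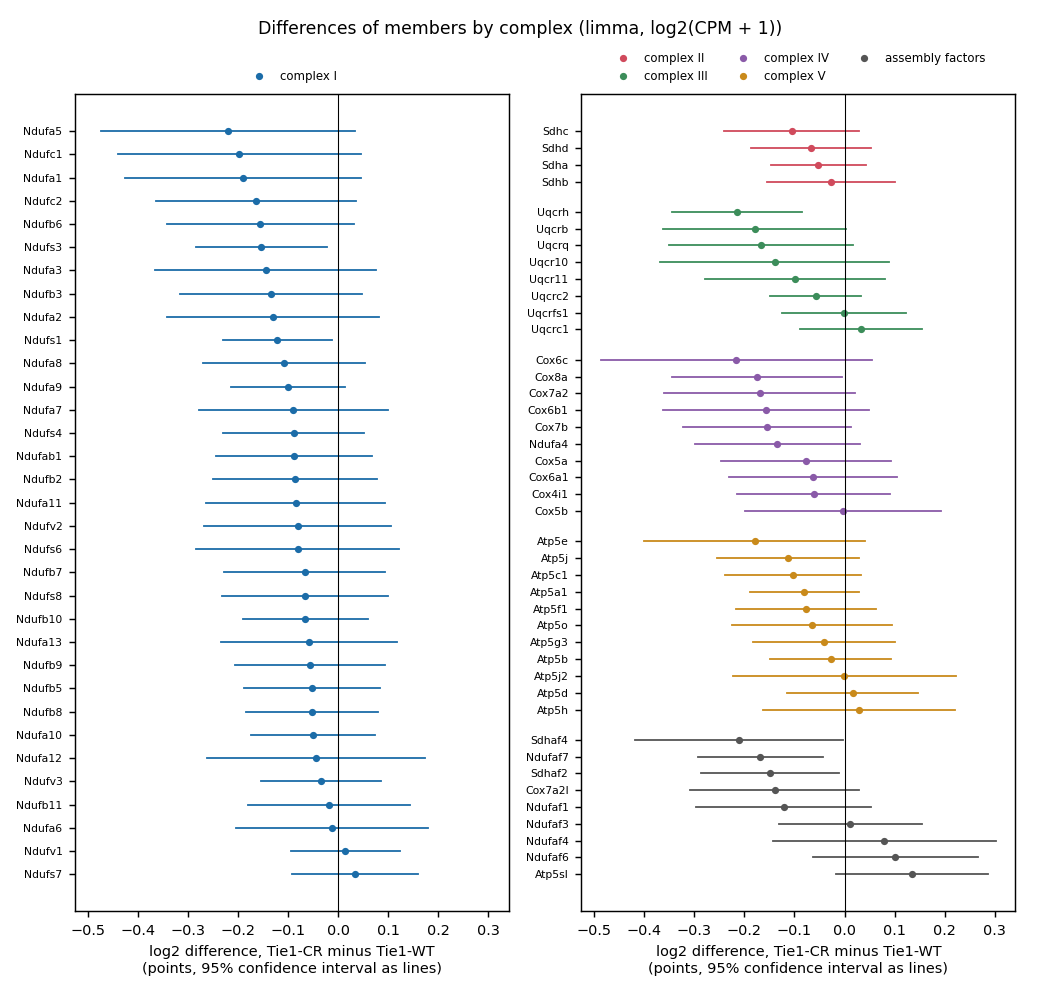
Log2 difference of 75 members (Tie1-CR minus Tie1-WT, log2(CPM + 1)), grouped by complex, with bars for 95% intervals from limma. The 75 points lie between -0.22 and 0.13, 66 of them below 0, and 0 passed the adjusted threshold.

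Uqcrh, Ndufaf7 and Ndufs3 had the smallest unadjusted p among the members with a promoter sequence at hand. Their windows, 250 bases before to 50 after the start of the gene in the RefSeq table of GRCm38.p6, are shown because the differences of these members lay furthest from 0 relative to their error among members with a window. Each reads 5′ to 3′ along its gene, with no base marked. They lie at chr4:116075021-116075320 (minus strand, Uqcrh), chr17:78936885-78937184 (plus strand, Ndufaf7) and chr2:90904672-90904971 (minus strand, Ndufs3).
Uqcrh: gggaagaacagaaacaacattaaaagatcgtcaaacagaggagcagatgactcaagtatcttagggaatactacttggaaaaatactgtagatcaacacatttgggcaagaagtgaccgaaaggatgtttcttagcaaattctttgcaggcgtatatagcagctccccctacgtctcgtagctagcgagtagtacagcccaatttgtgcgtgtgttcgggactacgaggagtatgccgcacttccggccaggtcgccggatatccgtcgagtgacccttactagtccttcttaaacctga
Ndufaf7: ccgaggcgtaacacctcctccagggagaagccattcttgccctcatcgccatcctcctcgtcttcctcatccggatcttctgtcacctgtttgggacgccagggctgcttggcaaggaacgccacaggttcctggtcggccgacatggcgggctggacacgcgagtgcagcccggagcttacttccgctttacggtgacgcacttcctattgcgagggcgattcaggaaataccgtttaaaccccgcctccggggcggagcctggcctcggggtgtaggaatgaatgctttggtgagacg
Ndufs3: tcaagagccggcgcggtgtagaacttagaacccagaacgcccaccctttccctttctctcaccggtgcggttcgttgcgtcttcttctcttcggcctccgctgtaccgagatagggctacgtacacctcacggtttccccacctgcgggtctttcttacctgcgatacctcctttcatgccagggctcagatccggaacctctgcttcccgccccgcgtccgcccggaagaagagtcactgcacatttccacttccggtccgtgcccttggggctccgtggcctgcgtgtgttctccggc
Across the members, 64 of 76 had such a window. Nrf1, a regulator of nuclear genes for mitochondrial proteins, stood at 83.1 ± 4.13 CPM in Tie1-CR (SD, n = 5), against 75.7 ± 1.81 CPM in Tie1-WT (SD, n = 4). Its groups did not overlap, but its difference of 0.13 (SE 0.05) missed the threshold (limma adjusted p = 0.129) and passed only with the correction for GC content and length described below (0.18, adjusted p = 0.0492).

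Complex I is the entry point for electrons from NADH, and 34 of its nuclear-encoded subunits were measured. Its 7 core subunits carry the flavin, the iron-sulfur clusters and the ubiquinone site, and the 27 accessory subunits surround them. The summed level of the 34 was 1408, 1318, 1155, 1274 and 1275 CPM in Tie1-CR replicates 1 to 5, against 1333, 1275, 1379.5 and 1415 CPM in Tie1-WT replicates 1 to 4. The Tie1-CR libraries spanned nearly the whole range of the Tie1-WT libraries and reached below it. The median difference was -0.09, with 32 of 34 below 0, of which 0 passed the test, 2 had an unadjusted p below 0.05, and 1 had groups that did not overlap. Leaving out Tie1-CR replicate 3 gave a median of -0.05, and leaving out Tie1-WT replicate 4 one of -0.06. Leaving out Tie1-CR replicate 1 gave a median of -0.11. With quantile normalization and with the correction for GC content and length it was -0.04.

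Ndufs1, at chr1:63143596-63176833 in GRCm38, encodes the largest iron-sulfur subunit of the NADH-oxidising arm. It measured 57.8, 62.5, 55.8, 62.4 and 60.3 CPM in Tie1-CR replicates 1 to 5, against 68.5, 63.1, 65.6 and 63.3 CPM in Tie1-WT replicates 1 to 4. All Tie1-CR libraries lay below all Tie1-WT libraries, but the nearest pair was Tie1-CR replicate 2 and Tie1-WT replicate 2, less than 1 CPM apart. The difference was -0.12 (SE 0.05), with a limma adjusted p of 0.177. Ndufs3, at chr2:90894634-90904827, encodes another core subunit of the peripheral arm. It measured 19.4, 18.4, 18.0, 18.6 and 18.5 CPM in Tie1-CR replicates 1 to 5, against 20.3, 19.0, 21.8 and 22.1 CPM in Tie1-WT replicates 1 to 4. Its groups overlapped through Tie1-WT replicate 2, and its difference of -0.15 (SE 0.06) did not pass (limma adjusted p = 0.154).

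The complex I genes with the highest CPM, a value that is not scaled to length, showed no such order. Ndufv1, which encodes the subunit that binds NADH and the flavin, measured 121, 115, 106, 119 and 112 CPM in Tie1-CR replicates 1 to 5, against 109, 112, 115 and 117 CPM in Tie1-WT replicates 1 to 4. Ndufs7, an iron-sulfur subunit next to the ubiquinone site, measured 90.1, 85.6, 73.9, 83.2 and 81.4 CPM in Tie1-CR replicates 1 to 5, against 80.1, 77.5, 83.1 and 82.5 CPM in Tie1-WT replicates 1 to 4. In both genes the highest of all libraries was Tie1-CR replicate 1 and the lowest Tie1-CR replicate 3, so that the Tie1-CR libraries enclosed the Tie1-WT ones. Their differences were 0.01 (SE 0.05) and 0.03 (SE 0.06), the only positive ones in complex I, and neither passed the test. That of Ndufv1 turned negative in 4 of the alternatives tried, by at most 0.01.

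All 27 accessory subunits had a negative difference, from -0.22 for Ndufa5 to -0.01 for Ndufa6, with a median of -0.09, and 0 had an unadjusted p below 0.05. The 7 core subunits had a median of -0.08, with 5 below 0. The accessory genes varied more within each genotype: the median SD on the log2 scale was 0.15 in Tie1-CR and 0.09 in Tie1-WT, against 0.08 in Tie1-CR and 0.05 in Tie1-WT for the core genes. Their transcripts were also shorter (median 704 against 1312 nucleotides) and their levels lower (median 33.1 against 62.1 CPM). The part of length and level in this spread was not tested. Ndufa5, which had the most negative difference of all members and was chosen after its values were seen, measured 14.7, 14.7, 11.2, 12.2 and 12.6 CPM in Tie1-CR replicates 1 to 5, against 16.0, 12.5, 14.7 and 18.8 CPM in Tie1-WT replicates 1 to 4. Its values ran from Tie1-CR replicate 3 at the low end to Tie1-WT replicate 4 at the high end, and the groups overlapped (limma adjusted p = 0.288).

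Complex II oxidises succinate in the citrate cycle and is encoded in the nucleus as a whole, and its 4 subunits were all measured. Their summed level was 577, 517, 530.3, 552 and 548 CPM in Tie1-CR replicates 1 to 5, against 561, 565, 551 and 586 CPM in Tie1-WT replicates 1 to 4. The groups overlapped, and the ratio of the means was 0.963. Sdha, the flavoprotein that oxidises succinate, measured 278, 263, 280.4, 279 and 276 CPM in Tie1-CR replicates 1 to 5, against 288, 286, 273 and 295 CPM in Tie1-WT replicates 1 to 4. The Tie1-CR libraries were tight apart from replicate 2, the lowest, and the difference was -0.05 (SE 0.04). Sdhb, the iron-sulfur subunit, averaged 126 ± 9.92 CPM in Tie1-CR (SD, n = 5), against 128 ± 3.41 CPM in Tie1-WT (SD, n = 4), a difference of -0.03 (SE 0.06). The membrane anchors Sdhc and Sdhd, which hold the ubiquinone site, differed by -0.11 (SE 0.06) and -0.07 (SE 0.05), the smallest limma adjusted p in the complex being 0.336, for Sdhc.

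The median difference of complex II was -0.06, with 4 of 4 below 0 and 0 past the test. For 2 of the 4, Sdha and Sdhd, the sign turned with the correction for GC content and length. The median was -0.0033 with that correction and -0.04 both with TMM scaling and without Tie1-WT replicate 4. It was -0.08 without Tie1-CR replicate 1.

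Complex III takes electrons from ubiquinol to cytochrome c, and 8 of its nuclear-encoded subunits were among the members. Their summed level was 354, 319.6, 300.1, 319.9 and 315 CPM in Tie1-CR replicates 1 to 5, against 339, 320.4, 346 and 345 CPM in Tie1-WT replicates 1 to 4. Uqcrh, at chr4:116066965-116075071, encodes the acidic hinge protein that sits between cytochrome c1 and cytochrome c. It measured 27.1, 22.9, 22.8, 23.3 and 24.0 CPM in Tie1-CR replicates 1 to 5, against 28.3, 27.6, 28.8 and 27.4 CPM in Tie1-WT replicates 1 to 4. Every Tie1-CR library was below every Tie1-WT library, but Tie1-CR replicate 1 stood apart from the other Tie1-CR libraries and lay within 1 CPM of the lowest Tie1-WT library. The difference was -0.21 (SE 0.06), with a 95% interval of -0.35 to -0.08, and the limma adjusted p was 0.0658. Without Tie1-CR replicate 1 it was -0.26 and passed (limma adjusted p = 0.0235), and with libraries weighted by their quality it also passed (-0.22, adjusted p = 0.0269). In the other alternatives it did not pass, with adjusted p between 0.0658 and 0.300.

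The 5 small accessory subunits of complex III (Uqcr10, Uqcr11, Uqcrb, Uqcrh and Uqcrq) all had a negative difference, with a median of -0.17, and 0 passed the test. Uqcrb, known as the ubiquinone-binding protein, averaged 14.0 ± 1.35 CPM in Tie1-CR (SD, n = 5), against 15.9 ± 1.22 CPM in Tie1-WT (SD, n = 4), a difference of -0.18 (SE 0.08), which became -0.01 with the correction for GC content and length. The summed level of the 5 was 130.7 ± 13.5 CPM in Tie1-CR (SD, n = 5), against 146 ± 8.49 CPM in Tie1-WT (SD, n = 4). Their mean log2 level differed by -0.160, and by -0.077 with the correction. The larger subunits lay nearer to 0. Uqcrc1, a core protein on the matrix side, averaged 79.2 ± 5.64 CPM in Tie1-CR (SD, n = 5), against 77.2 ± 1.96 CPM in Tie1-WT (SD, n = 4), a difference of 0.03 (SE 0.06). Uqcrc2, the other core protein, differed by -0.06 (SE 0.04), and Uqcrfs1, the Rieske iron-sulfur protein, by -0.00 (SE 0.06). The median of all 8 was -0.12, which became -0.07 without Tie1-CR replicate 3, -0.08 with quantile normalization and -0.04 with the correction. It was -0.17 without Tie1-CR replicate 1.

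**Figure D2:**
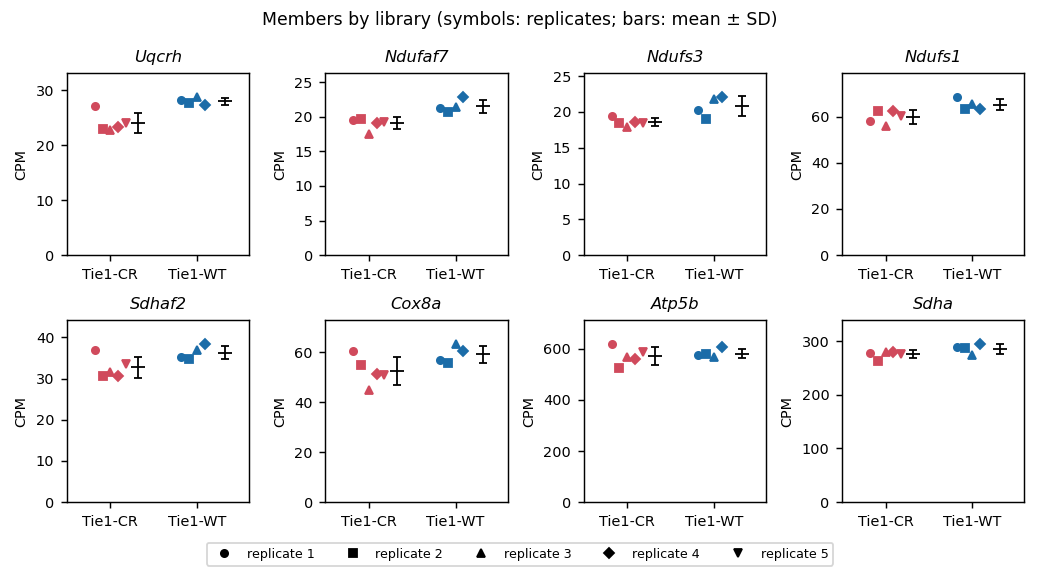
Level (CPM, linear axis from 0) of 8 members in each library, with Tie1-CR left of Tie1-WT, 1 symbol per replicate and bars for mean ± SD. Uqcrh, Ndufaf7 and Ndufs1 have groups that do not overlap, and in the other 5 genes they overlap.

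Complex IV reduces oxygen, and its catalytic core is encoded in mitochondrial DNA, so that the 10 genes here encode the surrounding nuclear subunits. Ndufa4 is counted with them, since its product is known as a complex IV subunit in spite of its name. The summed level was 641, 573, 482, 545 and 545 CPM in Tie1-CR replicates 1 to 5, against 583, 562, 630.0 and 635 CPM in Tie1-WT replicates 1 to 4. The median difference was -0.14, with 10 of 10 below 0, of which 0 passed the test and 1, Cox8a, had an unadjusted p below 0.05. With the correction for GC content and length the median was -0.06. Without Tie1-CR replicate 3, the ratio of the summed level in Tie1-CR to that in Tie1-WT was 0.956, against 0.925 with it.

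Cox8a, a small hydrophobic subunit, measured 60.4, 54.9, 44.9, 51.1 and 50.7 CPM in Tie1-CR replicates 1 to 5, against 56.9, 55.5, 63.3 and 60.7 CPM in Tie1-WT replicates 1 to 4. Tie1-CR replicate 1 lay among the Tie1-WT libraries, and Tie1-CR replicate 3 was the lowest of all. The difference was -0.18 (SE 0.08), with a limma adjusted p of 0.211, and it passed only with the correction for GC content and length (-0.16, adjusted p = 0.0482). Cox4i1, the ubiquitous isoform of the largest nuclear-encoded subunit, measured 149.9, 124, 116, 126 and 132 CPM in Tie1-CR replicates 1 to 5, against 133, 131, 131 and 145 CPM in Tie1-WT replicates 1 to 4. Tie1-CR replicate 1 was the highest library, ahead of Tie1-WT replicate 4, and the difference was -0.06 (SE 0.07). Cox6a1, the isoform used outside heart and skeletal muscle, averaged 117 ± 12.7 CPM in Tie1-CR (SD, n = 5), against 122 ± 5.95 CPM in Tie1-WT (SD, n = 4), a difference of -0.06 (SE 0.08). Cox7b, an X-linked subunit, averaged 15.9 ± 1.63 CPM in Tie1-CR (SD, n = 5), against 17.7 ± 0.587 CPM in Tie1-WT (SD, n = 4), a difference of -0.16 (SE 0.08).

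Cox6c showed a single high library. It measured 50.9, 46.3, 38.5, 43.0 and 44.7 CPM in Tie1-CR replicates 1 to 5, against 45.7, 42.7, 68.5 and 54.0 CPM in Tie1-WT replicates 1 to 4, with Tie1-WT replicate 3 well above the other 8 libraries. Its difference of -0.22 (SE 0.12) had a 95% interval that reached lowest among the members, to -0.49, and did not pass (limma adjusted p = 0.324). Cox6c was chosen after its values were seen. Isoforms of muscle, pericyte or testis use among the members' families (Cox4i2, Cox6a2, Cox6b2, Cox7a1, Cox8b and Ndufa4l2) were not among the genes measured.

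Complex V makes ATP, with a catalytic F1 head, a membrane ring of c subunits and a stalk that joins them. The summed level of its 11 members was 1579.6, 1373, 1402, 1436 and 1495 CPM in Tie1-CR replicates 1 to 5, against 1474, 1487, 1482 and 1586 CPM in Tie1-WT replicates 1 to 4. Atp5b and Atp5a1 encode the beta and alpha subunits that form the catalytic head. Atp5b, the most abundant member, measured 619, 524, 567, 559 and 586 CPM in Tie1-CR replicates 1 to 5, against 576, 578, 566 and 605 CPM in Tie1-WT replicates 1 to 4. Atp5a1 measured 382, 339.9, 369, 372 and 374 CPM in Tie1-CR replicates 1 to 5, against 377, 391, 378 and 407 CPM in Tie1-WT replicates 1 to 4. In Atp5b, Tie1-CR replicate 1 was the highest library and Tie1-CR replicate 2 the lowest, and in Atp5a1 the lowest was again Tie1-CR replicate 2. Their differences were -0.03 (SE 0.06) and -0.08 (SE 0.05), with limma adjusted p of 0.806 and 0.364.

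The median difference of complex V was -0.06, with 9 of 11 below 0, 0 past the test and 0 at an unadjusted p below 0.05. It was -0.04 with TMM scaling, -0.03 without Tie1-CR replicate 3, and -0.02 both without Tie1-WT replicate 4 and with the correction for GC content and length. Leaving out Tie1-CR replicate 1 gave a median of -0.09. Atp5e, the epsilon subunit of the F1 rotor, averaged 19.2 ± 2.83 CPM in Tie1-CR (SD, n = 5), against 21.8 ± 1.90 CPM in Tie1-WT (SD, n = 4), a difference of -0.18 (SE 0.10). Atp5j, coupling factor 6 of the stalk, averaged 75.6 ± 6.24 CPM in Tie1-CR (SD, n = 5), against 81.8 ± 4.82 CPM in Tie1-WT (SD, n = 4), a difference of -0.11 (SE 0.06). Atp5g3, the measured gene of the c ring, averaged 83.1 ± 7.58 CPM in Tie1-CR (SD, n = 5), against 85.2 ± 2.58 CPM in Tie1-WT (SD, n = 4), a difference of -0.04 (SE 0.06), and the sign turned without Tie1-CR replicate 3. The c-ring genes Atp5g1 and Atp5g2 were not among the genes measured.

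The 9 assembly factors split by direction, with 5 below 0 and 4 above, and 0 passed the test. At an unadjusted p below 0.05 (limma), 3 were lower (Ndufaf7, Sdhaf2 and Sdhaf4) and 0 higher, against 14.0% of all genes lower and 8.27% higher. The median of the 9 was -0.12. It became -0.07 with quantile normalization and -0.01 with the correction for GC content and length. With a minimum mean of 20 CPM it was also -0.07, but over only the 4 factors that remained. Leaving out Tie1-CR replicate 1 gave a median of -0.14. Ndufaf7, at chr17:78937136-78948052, encodes a methyltransferase that acts early in the assembly of complex I. It measured 19.6, 19.7, 17.5, 19.1 and 19.2 CPM in Tie1-CR replicates 1 to 5, against 21.2, 20.6, 21.3 and 22.8 CPM in Tie1-WT replicates 1 to 4. The groups did not overlap, and the Tie1-CR libraries were close together apart from replicate 3, the lowest. The difference was -0.17 (SE 0.06), with a limma adjusted p of 0.114, and it did not pass in any alternative. Sdhaf2, needed to attach the flavin to Sdha, measured 37.0, 30.7, 31.7, 30.7 and 33.6 CPM in Tie1-CR replicates 1 to 5, against 35.3, 34.8, 36.8 and 38.4 CPM in Tie1-WT replicates 1 to 4. Tie1-CR replicate 1 lay among the Tie1-WT libraries, and the difference of -0.15 (SE 0.06) did not pass (limma adjusted p = 0.19). Sdhaf4, another complex II factor, averaged 10.8 ± 1.28 CPM in Tie1-CR (SD, n = 5), against 12.6 ± 1.04 CPM in Tie1-WT (SD, n = 4), a difference of -0.21 (SE 0.09) (limma adjusted p = 0.219).

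Among the factors above 0 were Ndufaf3, at 30.6 ± 2.69 CPM in Tie1-CR (SD, n = 5), against 30.3 ± 0.767 CPM in Tie1-WT (SD, n = 4), and Ndufaf4, at 16.4 ± 2.15 CPM in Tie1-CR (SD, n = 5), against 15.4 ± 1.65 CPM in Tie1-WT (SD, n = 4), which act together in building complex I. Their differences were 0.01 (SE 0.07) and 0.08 (SE 0.10), and that of Ndufaf3 turned negative in 4 alternatives. Cox7a2l, known for joining complexes III and IV into supercomplexes, averaged 12.7 ± 0.500 CPM in Tie1-CR (SD, n = 5), against 14.1 ± 1.45 CPM in Tie1-WT (SD, n = 4), a difference of -0.14 (SE 0.08) (limma adjusted p = 0.311).

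Levels between genes can be compared only per length, so each mean level was divided by the median length of the gene's coding transcripts. Atp5b was highest at 300.4 CPM per kb, followed by Cox6a1 at 208, Cox4i1 at 175 and Atp5a1 at 152. The lowest were Ndufab1, the mitochondrial acyl carrier protein, at 4.09 CPM per kb and the assembly factors Ndufaf4 at 4.38 and Ndufaf1 at 7.62. The place of Ndufab1 rests on an assigned length of 3479 nucleotides. By CPM alone it stood at 14.2, above Ndufa12, the lowest member, at 8.87. By class, the median was 88.6 CPM per kb in complex IV, 79.9 in complex II, 61.6 in complex V, 41.1 in complex III, 38.4 in complex I and 11.5 among assembly factors. Subunits of a complex thus differed widely, within complex I from 4.09 to 108 CPM per kb, and in complex V from 27.5 to 300.4 CPM per kb. Levels of single libraries rested on 307 to 33659 reads per member, and the fewest carry a counting error of 5.71% if reads are independent.

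The members varied together between libraries of the same genotype, and the range of their level within each exceeded the difference between genotypes. Each gene's log2 level was centred on its mean over the 9 libraries and averaged over the members. This level was 0.109, -0.014, -0.179, -0.057 and -0.048 in Tie1-CR replicates 1 to 5, against 0.024, -0.035, 0.078 and 0.122 in Tie1-WT replicates 1 to 4. The range was 0.288 within Tie1-CR and 0.157 within Tie1-WT. The SD was 0.103 in Tie1-CR and 0.068 in Tie1-WT, while the means of the genotypes differed by -0.085. Without Tie1-CR replicate 3 they differed by -0.049, and without Tie1-CR replicate 1 by -0.121.

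The same libraries held the extremes for most members. Among the 5 Tie1-CR libraries, replicate 1 was the highest for 64 of 76 members (84.2%), against 26.7% of all genes, and replicate 3 the lowest for 58 (76.3%), against 23.5%. Among the 4 Tie1-WT libraries, replicate 4 was the highest for 50 members (65.8%), against 28.7% of all genes, and replicate 2 the lowest for 55 (72.4%), against 32.5%. The range within Tie1-CR exceeded the difference between genotype means for 73 of 76 members (96.1%), against 91.1% of all genes. Complex IV had the widest range within Tie1-CR, 0.405, and assembly factors the narrowest, 0.176.

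**Figure D3:**
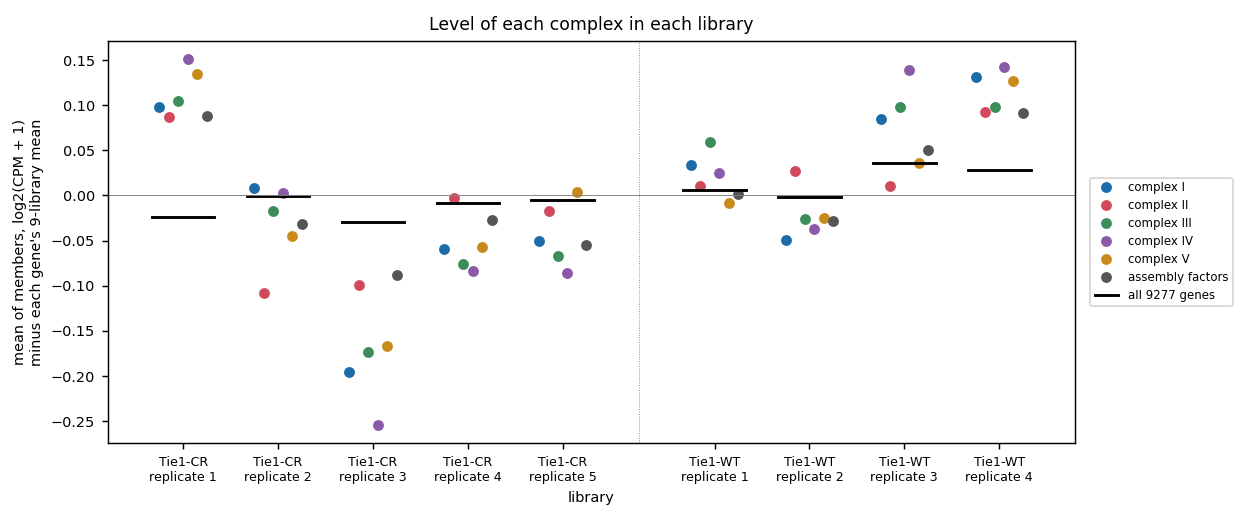
Mean centred log2 level of each class of members in each library, Tie1-CR replicates left of Tie1-WT replicates. Among the Tie1-CR libraries replicate 1 is the highest in each class and replicate 3 the lowest in each but complex II, where replicate 2 is, with a range over all members of 0.288 within Tie1-CR and 0.157 within Tie1-WT.

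The differences also went with transcript length. The 34 members shorter than 800 nucleotides had a median difference of -0.13, with 32 below 0, and the 42 longer ones -0.06, with 35 below 0. The split at 800 nucleotides was chosen after the data were seen. Short genes that are no members also lay below 0 on average, with a median of -0.06 over 186 genes, against -0.02 over all genes of 800 nucleotides or more. As a description across genes, which are not independent replicates, the difference and log2 length had a Pearson's r of 0.38 over the 76 members and 0.03 over 9258 genes with a length. Members and short genes also shared the pattern over libraries. The 186 short genes that are no members had a level of 0.096 in Tie1-CR replicate 1 and -0.182 in Tie1-CR replicate 3, against 0.122 in Tie1-WT replicate 4 and -0.047 in Tie1-WT replicate 2.

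A smooth correction of every library for GC content and length reduced these figures. The members' median difference became -0.03, with 53 of 76 below 0, beside a median of 0.01 over all genes. The range of the members' level became 0.096 within Tie1-CR and 0.037 within Tie1-WT, with a difference of -0.022 between genotypes. After it, 1 of 76 members passed, Cox8a, which fell, while of 9258 genes 124 rose and 171 fell. What length and GC content stand for in these libraries was not tested.

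**Figure D4:**
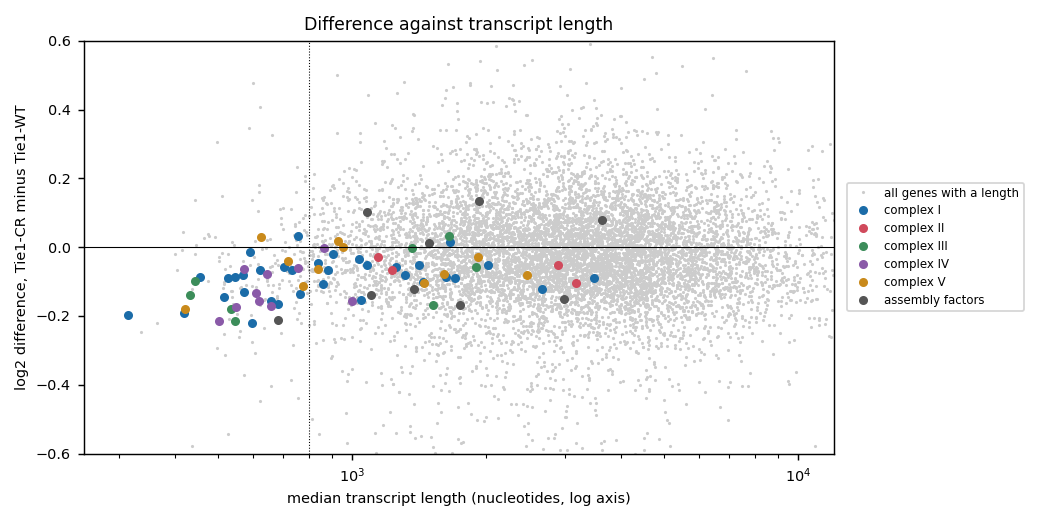
Log2 difference (Tie1-CR minus Tie1-WT) against median transcript length in nucleotides (log axis), with members coloured by class and 9258 genes in grey, of which 215 lie outside the axes. Members left of the dotted line at 800 nucleotides have a median of -0.13 and those right of it -0.06.

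Related gene groups give a frame for these values. The 7 genes of mitochondrial DNA in the table, which encode some of the other subunits of complexes I, III and IV, all had a negative difference, with a median of -0.17, and 0 passed. Their mean log2 level differed by -0.209, and by -0.052 with the correction for GC content and length. Among them mt-Nd1 measured 193, 166, 203, 175 and 200.1 CPM in Tie1-CR replicates 1 to 5, against 221, 206, 225 and 250.5 CPM in Tie1-WT replicates 1 to 4, with no overlap and a difference of -0.27 (SE 0.07) (limma adjusted p = 0.0682), which became -0.11 (adjusted p = 0.364) with the correction. Of 30 cytosolic ribosomal protein genes, 4 fell (Rpl10, Rpl41, Rpl3 and Rps2), 0 rose, 26 were below 0, and the median was -0.19. Without Tie1-WT replicate 1, Rpl41, Rpl3 and Rps2 no longer passed (adjusted p = 0.0509, 0.0509 and 0.0573), nor did Rps2 without Tie1-WT replicate 3 (0.0508). Of 69 mitochondrial ribosomal protein genes 0 passed the test and 45 were below 0, with a median of -0.03. Of 37 proteasome subunit genes 1 fell, Psmd14, and 34 were below 0, with a median of -0.06. The call of Psmd14 ended with the correction (adjusted p = 0.0668) and in the fits without Tie1-CR replicate 3 or 4 or any Tie1-WT library (0.0524 to 0.0834).

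The libraries at the extremes were compared for these groups too. Tie1-CR replicate 1 was the highest of the Tie1-CR libraries for 81.1% of the proteasome genes, 55.1% of the mitochondrial ribosomal genes and 53.3% of the cytosolic ribosomal genes. Tie1-CR replicate 3 was the lowest for 45.9% of the proteasome genes, 63.8% of the mitochondrial ribosomal genes and 56.7% of the cytosolic ribosomal genes. Neither these shares nor the counts below 0 were tested against those of the members.

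Of 30 measured assembly factors outside the name rule, 1 fell and 0 rose. It was Foxred1, a complex I factor, which measured 29.5, 34.8, 29.3, 35.4 and 31.5 CPM in Tie1-CR replicates 1 to 5, against 43.3, 41.0, 36.5 and 37.7 CPM in Tie1-WT replicates 1 to 4. The groups did not overlap, and the difference was -0.30 (SE 0.07) (limma adjusted p = 0.0468). Of 19 genes of mitochondrial import and cristae, 1 fell and 0 rose, Slc25a5, an ADP/ATP carrier of the inner membrane. It measured 52.4, 47.3, 48.3, 45.6 and 51.4 CPM in Tie1-CR replicates 1 to 5, against 59.6, 64.9, 55.1 and 55.5 CPM in Tie1-WT replicates 1 to 4, a difference of -0.26 (SE 0.06) (limma adjusted p = 0.0438). Foxred1 differed by -0.27 with TMM scaling, -0.26 with quantile normalization and -0.26 with the correction for GC content and length, and its call ended in each. Slc25a5 differed by -0.23, -0.22 and -0.17 in the same settings, and its call also ended in each. Both calls ended in 7 of the 9 fits that left out a library. For Foxred1 these were the fits without Tie1-CR replicate 1, 3 or 5 or any Tie1-WT library, with adjusted p of 0.0607 to 0.154. For Slc25a5 they were the fits without Tie1-CR replicate 2, 3, 4 or 5 or Tie1-WT replicate 1, 2 or 3, with adjusted p of 0.0573 to 0.134.

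In 5 measured genes of cytochrome c biology and subunits outside the rule, 9 regulators of mitochondrial biogenesis, 18 genes of the citrate cycle and 11 mitochondrial proteases and chaperones, 0 passed the test in either direction. Their smallest limma adjusted p was 0.0967, for Yme1l1, a protease of the inner membrane.

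Tie1 itself averaged 2433 ± 143 CPM in Tie1-CR (SD, n = 5), against 2136 ± 42.9 CPM in Tie1-WT (SD, n = 4). Its groups did not overlap, but its difference of 0.19 (SE 0.06) missed the threshold (limma adjusted p = 0.107). A transcript level does not show cleavage of the protein. The 10 endothelial markers were all measured, and their sum ran from 19308 to 21061 CPM in Tie1-CR, against 18141 to 19582 CPM in Tie1-WT. Of these markers, 8 had a difference above 0 and 2 below 0, with a median of 0.07. Only 1 passed the test, the transcription factor Erg, which fell. Of 6 type 2 pneumocyte markers 5 were measured. Their sum was 425 to 758 CPM in Tie1-CR, against 274 to 606 CPM in Tie1-WT. All 5 had a difference above 0, from 0.17 to 1.19, with a median of 0.96. Only 1 passed the test, Sftpd, which rose. That call ended with the robust model (adjusted p = 0.0636), with the correction (0.0516) and without any library other than Tie1-WT replicate 4 (0.0506 to 0.127). Of 4 airway markers 3 were measured. Their sum was 15.7 to 38.4 CPM in Tie1-CR, against 5.93 to 16.6 CPM in Tie1-WT. All 3 had a difference above 0, from 0.04 to 1.14, with a median of 1.10. Only 1 passed the test, Cyp2f2, which rose. That call ended with a pseudocount of 0.1 (adjusted p = 0.0512), with the robust model (0.0576), with the correction (0.0510) and without any library other than Tie1-CR replicate 2 (0.0562 to 0.0806). Of 6 leukocyte markers 2 were measured, with a sum of 60.2 to 118 CPM in Tie1-CR, against 30.6 to 76.9 CPM in Tie1-WT, and 1 fell, Cd68. The 2 went opposite ways: Cd68 differed by -0.90, and Lyz2, which did not pass, by 1.11. Among markers of type 1 pneumocytes, platelets, smooth muscle and pericytes, and fibroblasts, 3 of 5, 3 of 4, 3 of 8 and 2 of 5 were measured and 0 passed the test, while 0 of 5 erythroid and 0 of 6 cardiomyocyte markers were in the table. The measured type 1 pneumocyte and fibroblast markers were all below 0, with medians of -0.25 and -0.14. Platelet markers were all above 0, with a median of 0.35. Of the smooth muscle and pericyte markers, 2 were below 0 and 1 above. The part of other cell types in the members' differences was not tested.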

How the data were processed

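RNA from lung endothelial cells was sequenced, 38208696 to 54408116 counted reads per library. Per the submitters' processing notes, STAR 2.7 and the builds GRCm38.p6 and mm10 were used. Counting tool, annotation, strand setting, gene filter and the handling of reads shared with pseudogenes: not given in the sources used here. The table that the authors deposited is named TPM, but its values are CPM: in every library 100% of values are whole multiples of a library step, within 0.01 reads. The test on a log scale, planned for TPM, was kept. Every gene in the table reaches at least 10.0 CPM in some library.

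Values were tested as log2(CPM + 1) with limma 3.58.1 in R 4.3.3 (trended empirical Bayes, two-sided), after requiring 1 CPM or more in 4 or more libraries, which all genes met. Gene positions and lengths came from GENCODE M21 (GRCm38), which matched 9258 of 9277 genes and all 76 members, 1 by an older symbol (Atp5sl). Length is the median over basic coding transcripts with a RefSeq match. Promoters came from RefSeq (GRCm38.p6). Plots used matplotlib 3.10.9 in Python 3.11.15. The fit was tested on simulated data.

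Members and lists were chosen with earlier results of these data known. Named genes are the members past the threshold or without overlap, in each class the 2 highest and the 2 of smallest p, isoforms of restricted use, and in each other list those past the threshold or the 1 of smallest p. The values of 1 member are not reported singly here, though it stays in all counts and medians. Others are named as the ends of a range or after their values were seen. Alternatives were the pseudocount, filters, TMM (own code), quantile normalization, robust and weighted variance models, a replicate block, splines of 4 degrees of freedom on GC content and length, and each library left out.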

Additional observations from a re-analysis of the deposited data

Results flagged for a closer look

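In 5 of 64 checked sets of libraries, 1 library lay far from the others of its genotype by Dixon's 95% critical value, a mark that chance passes in about 1 in 20 sets. Uqcrh was high in Tie1-CR replicate 1, at 27.1 CPM, and without that library its difference passed the threshold. Ndufaf7 was low in Tie1-CR replicate 3, at 17.5 CPM. Sdha was low in Tie1-CR replicate 2, at 263 CPM. Cox4i1 was high in Tie1-WT replicate 4, at 145 CPM. Tie1 was high in Tie1-CR replicate 4, at 2679 CPM.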

How the results depend on the processing

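The members' median difference stayed negative in all 19 alternatives, between -0.115 and -0.028, and 2 members passed the threshold in any of them. Of members, 1 fell with library weights (Uqcrh) and 1 with the correction for GC content and length (Cox8a), and with libraries left out in turn the number that fell ran from 0 to 1. Over all genes, 119 rose and 257 fell as reported. With TMM scaling 182 rose and 194 fell (51.6% lower, against 68.4% as reported), and with quantile normalization 183 rose and 190 fell (50.9% lower). With library weights 245 rose and 416 fell, and with the correction 124 rose and 171 fell. With libraries left out, 6 to 110 genes rose and 54 to 245 fell, the fewest without Tie1-WT replicate 1. The median of assembly factors was -0.0131 with the correction. The sign turned with the correction for Atp5b (0.0089), Atp5g3 (0.0484), Ndufv1 (-0.0054), Sdha (0.0074), Sdhd (0.0087) and Uqcrc2 (0.0439), and with library weights for Ndufaf3 (-0.0043). With libraries left out, the difference ran from -0.057 to 0.0025 for Atp5b, -0.0813 to 0.0017 for Atp5g3, -0.0283 to 0.0543 for Ndufaf3, -0.0059 to 0.0423 for Ndufv1 and -0.0016 to 0.0614 for Uqcrc1. The cause of these changes was not tested.

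Replicate numbers are shared between genotypes, but same-numbered libraries did not deviate together (correlations -0.144, 0.00411, -0.0597 and 0.19 for numbers 1 to 4). Only for Tie1-WT replicate 4 was the best-correlated Tie1-CR library the one of the same number. With a replicate block, which leaves Tie1-CR replicate 5 without a partner and so without weight, 37 genes rose and 145 fell, and 0 members passed (smallest adjusted p 0.168), while Foxred1 (adjusted p = 0.112), Slc25a5 (0.0862), Sftpd (0.0662), Cyp2f2 (0.0720), Rpl3 (0.0777), Rps2 (0.0803) and Psmd14 (0.0923) no longer passed. A planned count test was not run, because the table holds scaled values and none near 1 read against which recovered reads could be checked. With 4 and 5 libraries, the median standard error of a single member was 0.07, about the size of the members' median difference. It is not the error of that median. The SD of the members' mean level between libraries was 0.103 in Tie1-CR and 0.068 in Tie1-WT. Genes below 10 CPM in all libraries are not in the table.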
